A study of Rattus norvegicus with 56 samples.

Results

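The effect of what the labels call RXR treatment on the mammary gland was examined in rats outside diestrus, those in proestrus or estrus. These were the individual-rat arrays, 1 per rat, whose labels read proestrus, estrus, or either of them: 9 of the 56 arrays of the series, from 6 treated and 3 control rats. All were female Wistar Furth rats, an inbred strain. The labels placed treated rats 2, 11 and 12 and control rats 3 and 10 in estrus, treated rat 10 in proestrus, and treated rats 3 and 14 and control rat 8 in proestrus or estrus without choosing between them. The sources used here give neither the compound, its dose and duration, nor the age of the rats. For each rat, 5 µg of total gland RNA was made into labelled target, of which 10 µg was hybridised to an expression array, per the labels. A further 15 individual rats, 6 treated and 9 control, were in diestrus and served as an independent comparison.

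RXR, the retinoid X receptor, is a nuclear receptor that binds DNA mostly as the partner of another receptor, such as the thyroid hormone, vitamin D, retinoic acid, LXR or PPAR receptors. Ligands of RXR, called rexinoids, can act through several of these pairs. The mammary gland of a rat that is not nursing is a fat pad threaded with epithelial ducts, so RNA of the whole gland carries both adipocyte and epithelial transcripts, and the epithelium answers to the ovarian hormones of the estrous cycle. In adipocytes, insulin moves the glucose transporter GLUT4 to the cell surface, and glucose carbon that enters mitochondria as pyruvate leaves them as citrate to be built into fatty acids and triglyceride.

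Some rats stood apart. Treated rat 3 resembled the other treated rats least. Its deviation from the mean of all 24 individual rats correlated across probe sets at a mean r of 0.0271 with those of the other treated rats. For the rest of that group the mean r was 0.18 to 0.336. Control rats 3, 8 and 10 also had low values with their own group, at 0.0892, 0.0135 and -0.0568. Treated rats 3 and 10 carried high levels of skin genes. Krt10, a keratin of the outer skin layers, was 9.1 in treated rat 3 and 11.12 in treated rat 10, but 5.17 to 5.36 in the other 4 treated rats and 5.16 to 5.43 in the controls (log2 throughout). The mean of 9 skin markers was 8.33 in treated rat 3 and 9.31 in treated rat 10, against 6.99 to 7.38 in the other 7 rats. Counts are therefore also given without these rats. The treated and control groups shared 2 rat numbers, but nothing in the labels ties equal numbers to each other. The array medians ran from 7.41 to 7.46.

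In treated rats outside diestrus, 190 of 15866 probe sets rose and 45 fell by limma's test at a Benjamini-Hochberg adjusted p under 0.05, which is 1.2% and 0.284% of those tested. The rises were led by genes of glucose uptake, pyruvate oxidation, fatty acid synthesis and glycogen. The falls were smaller and included Cyp2e1, Cers6, Cd14, Stat3 and Cfd. The smallest difference among the calls was 0.283, the median 0.648, and 48 calls differed by more than 1, that is by more than a doubling. In 229 of the 235 calls the lowest rat of the higher group lay above the highest rat of the other. Over all probe sets, the groups did not overlap for 3.58% with treated rats higher and for 2.92% with treated rats lower. With 6 rats against 3 the smallest 2-sided exact permutation p for a single gene is 0.0238, so the calls rest on limma's sharing of the spread across probe sets.

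The number of calls depended on single rats. It was 583 without treated rat 3 and 488 without treated rats 3 and 10. It was 0 without treated rat 12 (1837 probe sets at an unadjusted p under 0.05) and 0 without control rat 3 (1751 probe sets), against 2087 with all 9 rats. Leaving out any of the other 6 rats gave 11 to 118 calls. The direction and an unadjusted p under 0.05 were kept by 235 of 235 calls with each rat left out. These calls were picked for a small p on the same 9 rats, so this is no separate support for them.

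**Figure D1:**
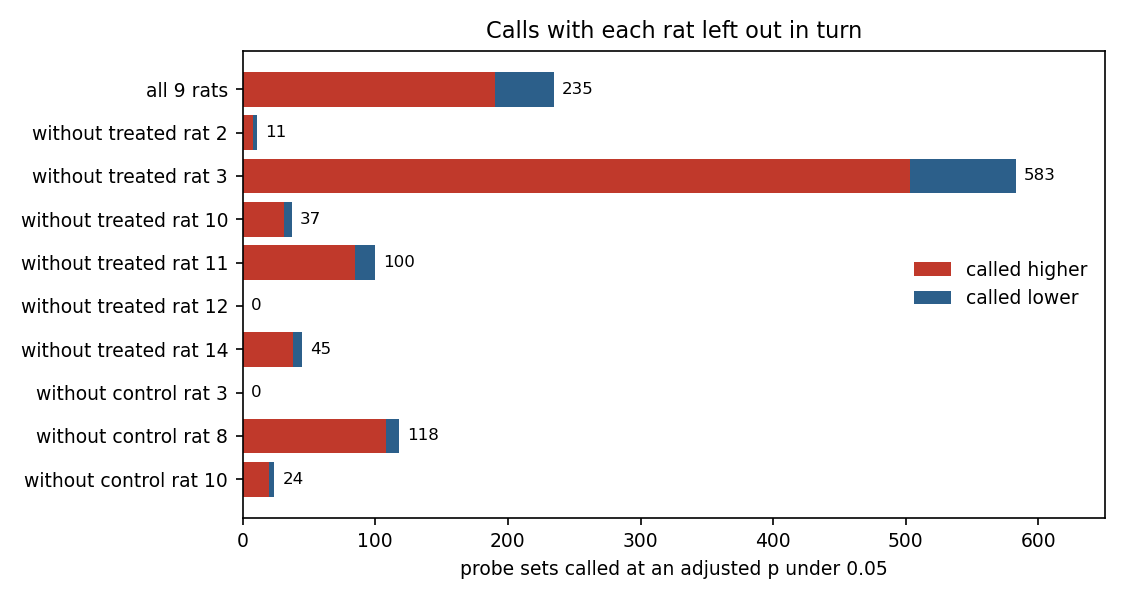
Number of probe sets called by limma at an adjusted p under 0.05 with all 9 rats and with each rat left out in turn, split into those called higher (red) and lower (blue) in treated rats. The count was 235 with all rats, 583 without treated rat 3, and 0 without treated rat 12 or control rat 3.

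The largest rise was that of Angptl8, which encodes a secreted protein that takes part in restraining lipoprotein lipase. It stood at 6.04, 6.3 and 6.56 in the control rats and at 7.74 (lowest), 9.41 (median) and 9.92 (highest) in the treated rats. The groups did not overlap, and the difference was 2.93 ± 0.38 (SE), or 7.62-fold (limma adjusted p = 0.0166). Treated rat 3 was the lowest treated rat, and its other 2 arrays read 7.83 and 7.93. Pnpla3, a lipid droplet protein whose transcript follows feeding and lipogenesis, was 7.11, 7.66 and 8.11 in controls and 8.95, 10.43 and 11.25 (lowest, median and highest) in treated rats. It rose 6.53-fold, by 2.71 ± 0.40 (limma adjusted p = 0.0166), again without overlap. Angptl8 was the only called gene of 15 on the lipid uptake list, whose median difference was 0.04. The lipase it acts on, Lpl, was higher by 0.61 ± 0.13 but not called (limma adjusted p = 0.0515), and Angptl4, another inhibitor of that lipase, differed by -1.08 with overlapping groups (limma adjusted p = 0.335).

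Genes that bring glucose carbon into the mitochondrion were higher in treated rats. Of 29 measured genes of glucose and pyruvate entry, 10 rose, 0 fell and 26 had a difference above 0, with a median of 0.61. Over all 10411 genes, at 1 probe set each, 153 rose, 31 fell and the median difference was 0.00. At an unadjusted p under 0.05, 911 of them were higher and 616 lower. Slc2a4, the gene of GLUT4, was 8.0, 8.21 and 8.38 in controls and 9.1, 10.24 and 10.52 in treated rats. This was a rise of 1.93 ± 0.26, or 3.81-fold (limma adjusted p = 0.0166), with no overlap between groups. Both subunits of the mitochondrial pyruvate carrier rose, Mpc1 by 1.29 and Mpc2 by 1.27 (limma adjusted p = 0.0166 and 0.0259). So did the pyruvate dehydrogenase components Pdhb (1.51), Pdhx (1.23) and Pdha1 (0.97), at limma adjusted p = 0.0166 to 0.0446. Pdhb stood at 9.67, 10.05 and 9.83 in controls and at 10.52, 11.46 and 11.73 (lowest, median and highest) in treated rats. Pdk1, a kinase that switches this complex off, rose as well, by 1.41 ± 0.30 (limma adjusted p = 0.046). On that probe set the groups overlapped: treated rat 3 at 8.19 lay below control rat 10 at 8.22. The second Pdk1 probe set rose by 0.82 without overlap (limma adjusted p = 0.0377). The glycolytic genes Aldoa, Tpi1 and Ldha rose by 0.79, 0.53 and 0.48. Pc, pyruvate carboxylase, was higher by 1.04 and not called (limma adjusted p = 0.0571).

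Of 13 glycogen genes, 3 rose and the median difference was 0.16. They were Gys2, the glycogen synthase best known from liver (1.52 ± 0.25, limma adjusted p = 0.0245), Pygl, a glycogen phosphorylase (1.37 ± 0.24, limma adjusted p = 0.0305), and Gbe1, the branching enzyme (1.35 ± 0.28, limma adjusted p = 0.0446). Genes of synthesis and of breakdown were thus both among them. Gys2 was 6.64, 6.43 and 6.57 in controls and 7.19, 8.1 and 8.61 in treated rats. Gbe1 overlapped between groups, with the lowest treated rat at 9.17 and control rat 8 at 9.19. The muscle phosphorylase Pygm was not called (0.16, limma adjusted p = 0.443).

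Fatty acid synthesis had the highest list median. Of 22 measured genes, 12 rose, 0 fell and 21 had a difference above 0, with a median of 0.74. The list counts Pnpla3, the lipid droplet protein described above, whose 2.71 was its highest difference. The path from citrate was covered: the mitochondrial citrate carrier Slc25a1 rose by 1.12, ATP citrate lyase Acly by 1.22, acetyl-CoA carboxylase Acaca by 0.99 and fatty acid synthase Fasn by 0.69. Acly stood at 11.4, 11.74 and 11.23 in controls and at 12.1, 12.77 and 12.97 (lowest, median and highest) in treated rats. The elongase Elovl6 rose by 1.88 ± 0.39, and the desaturase Scd, already near the top of the range at 13.56 to 13.65 in controls, by 0.33 (0.19 and not called with quantile normalization). Genes that supply NADPH rose too. Me1, malic enzyme, was 10.2, 10.99 and 10.36 in controls and 11.4, 12.47 and 12.59 in treated rats, a rise of 1.77 ± 0.25, and Pgd, of the pentose phosphate path, rose by 0.82. Among regulators, Mlxipl, the gene of the glucose-sensing factor ChREBP, rose by 1.05 ± 0.20 and Thrsp, a lipogenic protein of fat and liver, by 0.78 ± 0.10. For these 10 genes the limma adjusted p ran from 0.0165 (Thrsp) to 0.0446 (Elovl6). The second Fasn probe set rose by 1.22, and a second Acaca probe set was higher by 0.99 with overlapping groups and no call (limma adjusted p = 0.0991).

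Downstream, 6 of 20 genes of triglyceride assembly and lipid droplets rose and 0 fell, with a median of 0.66. Dgat2, which adds the last fatty acid of a triglyceride, had the smallest adjusted p of all probe sets (0.0129, limma). It was 11.03, 11.2 and 11.06 in controls and 11.85, 12.5 and 12.73 in treated rats, a rise of 1.32 ± 0.15. Gpd1, which makes the glycerol phosphate backbone from a glycolytic intermediate, rose by 1.25 and 1.46 on its 2 probe sets, and Agpat3, an acyltransferase, by 1.01. Genes that act on stored lipid rose in the same rats: Mgll, monoglyceride lipase, by 1.12, Aqp7, the glycerol channel of fat cells, by 0.88, and G0s2, an inhibitor of adipose triglyceride lipase, by 1.15. That lipase itself, Pnpla2, was higher by 0.62 and not called (limma adjusted p = 0.176). The other Mgll probe sets differed by 0.77, 0.43 and 0.07, with overlapping groups and no call. Of 17 cholesterol synthesis genes, 0 were called by limma (2 at an unadjusted p under 0.05), with a median of 0.14.

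**Figure D2:**
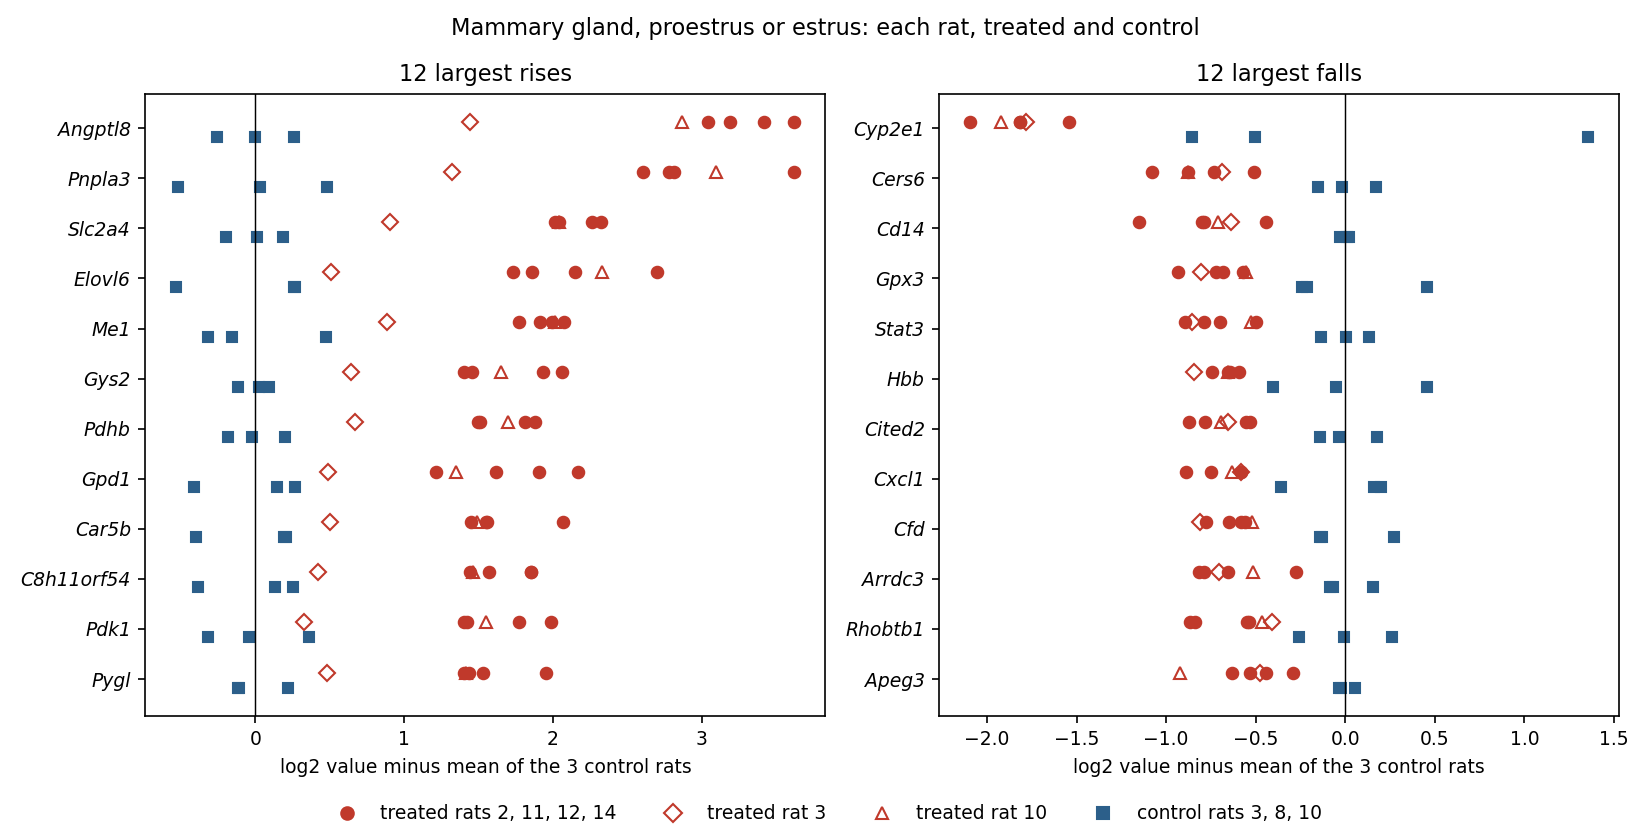
Each rat's log2 value for the 12 largest rises (left) and the 12 largest falls (right) among called genes, as the difference from the mean of the 3 control rats; red circles are treated rats 2, 11, 12 and 14, the open diamond treated rat 3, the open triangle treated rat 10, and blue squares the control rats. Treated rat 3 was the lowest treated rat for each of the 12 rises, while among the falls it was the lowest for Hbb and Cfd, the highest for Rhobtb1 and in between or level with another rat for the rest. Angptl8 shows the largest rise at 2.93, and the groups overlap for the Pdk1 probe set shown.

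Mitochondrial genes were higher by less per gene but across nearly whole lists. Of 29 respiratory chain genes, 11 rose and 29 had a difference above 0, with a median of 0.41. They included Ndufs1, Ndufs3, Ndufa2 and Ndufv1 of complex I, Uqcrc1, Uqcrfs1, Uqcrq and Cyc1 of complex III, Cox6a1 and Cox8a of complex IV and Atp5f1b of the ATP synthase. The largest of these was Ndufs1 at 0.81 ± 0.17 (limma adjusted p = 0.0446) and the smallest Atp5f1b at 0.35 ± 0.07 (limma adjusted p = 0.0362). Uqcrc1 was 10.74, 10.78 and 10.64 in controls and 11.07, 11.29 and 11.61 (lowest, median and highest) in treated rats. Of 17 tricarboxylic acid cycle genes 5 rose, with 17 differences above 0 and a median of 0.50. These were Idh3g (0.57), Idh2 (0.46), Sdhc (0.57), Sdhd (0.50) and Ogdh (0.51), at limma adjusted p = 0.0245 to 0.046. Of 29 genes of beta-oxidation and PPAR targets 3 rose, Hadhb (0.68), Etfdh (0.57) and Cpt2 (0.56), and the median was 0.17. Ucp2, an uncoupling protein, was lower without overlap and not called (difference -0.55, limma adjusted p = 0.108). Branched chain amino acid breakdown had 2 rises in 16 genes, Pcca (0.74) and Auh (0.61), and a median of 0.27.

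These lists depended on single rats in the same way as the whole table. Without treated rat 3 the rises numbered 16 of 29 for glucose and pyruvate entry, 15 of 22 for fatty acid synthesis, 10 of 20 for triglyceride assembly, 16 of 17 for the tricarboxylic acid cycle and 19 of 29 for the respiratory chain. Without treated rats 3 and 10 they were 14, 15, 9, 15 and 19. Without treated rat 12, or without control rat 3, each of these lists had 0 calls by limma, while the medians stayed at 0.35 to 0.74. Centring each array on its median left 7, 7, 6, 1 and 5 rises.

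**Figure D3:**
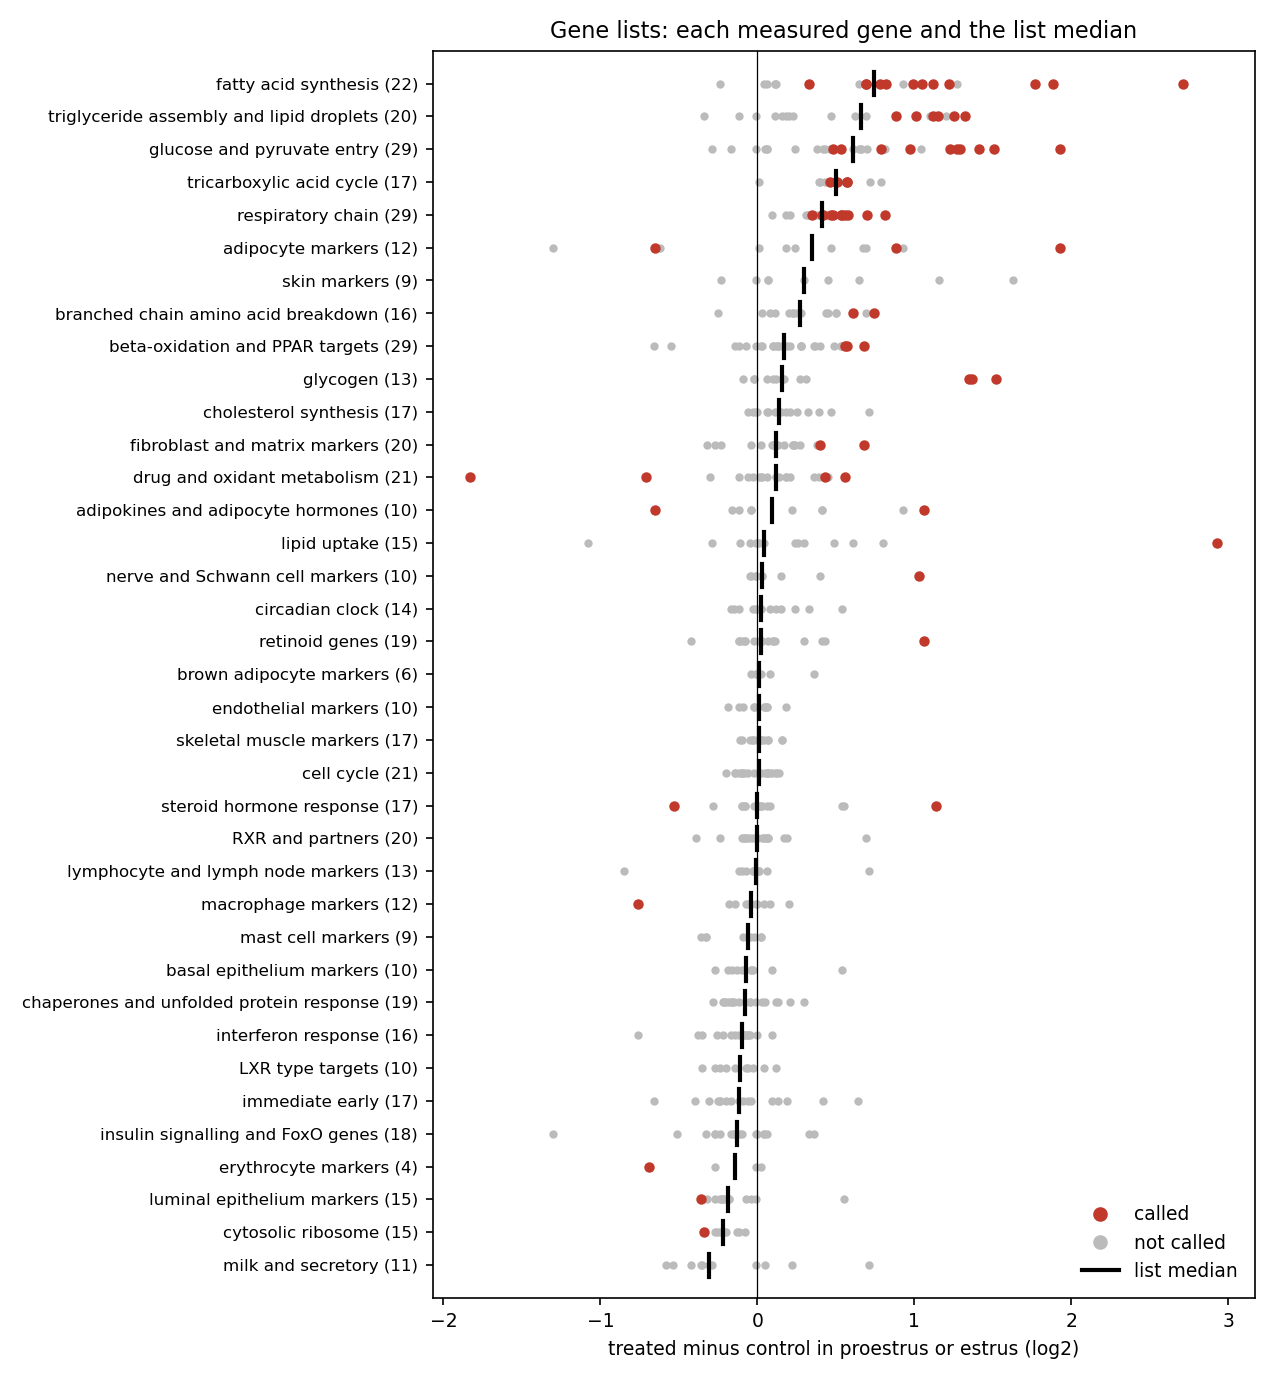
Treated minus control differences outside diestrus (log2) for each measured gene of 37 lists, with called genes in red, the others in grey and the list median as a black bar; the number of measured genes stands in parentheses. Fatty acid synthesis has the highest median (0.74) and milk and secretory genes the lowest (-0.31), and 29 of 29 respiratory chain genes lie above 0.

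These promoters are examples, from genes that rose and genes that fell, of windows with a letter match to a motif of a regulator named above. They were taken from RefSeq (GRCr8) as the 250 bases before the gene's start, and 21 of the 24 largest rises and falls had an entry. Capitals mark CACGTG, the E-box core that ChREBP and related factors can bind, in Pdhb, which rose, and Cers6, which fell, and AGGTCA, the half-site of RXR and its partners, in Gys2, which rose, and Cyp2e1, the gene with the largest fall. Cited2 and Rhobtb1, which fell, also held 1 CACGTG each and are not shown.
Pdhb (chr15:19182539-19182788, plus strand): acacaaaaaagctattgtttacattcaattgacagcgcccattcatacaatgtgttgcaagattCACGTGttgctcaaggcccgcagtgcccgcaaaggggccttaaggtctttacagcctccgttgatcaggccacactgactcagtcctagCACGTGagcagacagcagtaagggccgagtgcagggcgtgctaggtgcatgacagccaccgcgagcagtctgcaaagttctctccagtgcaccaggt
Cers6 (chr3:74038611-74038860, plus strand): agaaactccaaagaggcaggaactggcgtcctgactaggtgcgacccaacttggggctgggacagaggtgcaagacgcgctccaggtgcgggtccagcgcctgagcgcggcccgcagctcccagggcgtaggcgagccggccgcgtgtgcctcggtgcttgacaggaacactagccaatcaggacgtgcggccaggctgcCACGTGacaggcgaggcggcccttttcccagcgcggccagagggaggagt
Gys2 (chr4:177137237-177137486, minus strand): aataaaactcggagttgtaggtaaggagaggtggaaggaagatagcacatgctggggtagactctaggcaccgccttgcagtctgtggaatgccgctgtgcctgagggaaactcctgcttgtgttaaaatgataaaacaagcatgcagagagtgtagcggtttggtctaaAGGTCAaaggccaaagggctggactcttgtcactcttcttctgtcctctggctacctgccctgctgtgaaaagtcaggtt
Cyp2e1 (chr1:205269717-205269966, plus strand): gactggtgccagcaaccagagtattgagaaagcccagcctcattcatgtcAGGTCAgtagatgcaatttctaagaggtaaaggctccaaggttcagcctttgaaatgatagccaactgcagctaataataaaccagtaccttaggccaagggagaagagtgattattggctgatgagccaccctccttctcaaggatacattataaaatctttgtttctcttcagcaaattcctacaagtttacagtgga

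Searched on both strands, CACGTG stood in 5.79% of 27457 RefSeq promoters, in 7.89% of the 8630 promoters of genes on the array and in 11 of the 133 promoters of genes called higher (8.27%), and in 4 of the 31 of genes called lower (12.9%). AGGTCA stood in 13.7%, 11.4%, 11.3% (15 promoters) and 6.45% (2 promoters) respectively. The exact direct repeat of that half-site with 1 base between both copies was found in 15 promoters of all and in 0 of those of called genes, and it contains the half-site counted above. The sterol element TCACNCCAC stood in 1.03% of the array's promoters in 0 of the 31, and in 3 of the 133 (2.26%), those of Echdc1, Mtch2 and Myl4, named here after their matches were seen. These shares describe letters in a short window and not binding. The windows of Angptl8, Pnpla3 and Me1 held none of these motifs.

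The falls were spread over genes of different roles. Cyp2e1, a cytochrome P450 that oxidises ethanol and acetone, fell most, by 1.83 on the log2 scale (SE 0.37, limma adjusted p = 0.0446). It was 8.42, 8.07 and 10.28 in control rats 3, 8 and 10 and 6.83, 7.11 and 7.38 (lowest, median and highest) in treated rats. The groups did not overlap, and control rat 10 lay far above the other controls. Without that rat the difference was -1.15 (limma adjusted p = 0.0208). Cers6, a ceramide synthase, fell by 0.80 (SE 0.12, limma adjusted p = 0.0166), from 8.09, 8.22 and 8.41 in controls to 7.16, 7.44 and 7.73 in treated rats. Cfd, the complement factor adipsin that fat cells secrete, fell by 0.65 (limma adjusted p = 0.0239), while Rbp4, the retinol carrier that fat cells also secrete, rose by 1.06 (limma adjusted p = 0.032). Leptin, Lep, was higher by 0.93 without overlap but not called (limma adjusted p = 0.079). Gpx3, a secreted glutathione peroxidase, fell by 0.71 (limma adjusted p = 0.0446) and Gsta1, a glutathione transferase, rose by 0.56 (limma adjusted p = 0.0318).

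Cd14, a co-receptor for bacterial lipopolysaccharide, was 11.04, 11.08 and 11.09 in controls and 9.92, 10.32 and 10.63 in treated rats, a difference of -0.76 (SE 0.12, limma adjusted p = 0.0245). It was the only call among 12 macrophage markers, whose median was -0.04. Cxcl1, a chemokine that attracts neutrophils, fell by 0.67, with control rat 3 at 7.91 close to the highest treated rat at 7.69. Stat3, a transcription factor downstream of cytokine receptors, fell by 0.71 on one probe set (limma adjusted p = 0.0166), while its other probe set differed by -0.13 and was not called. Cited2, a transcriptional co-regulator, fell by 0.68 (limma adjusted p = 0.0166), and its other probe set, at -0.61, was not called (limma adjusted p = 0.0546). Hbb, a globin of red blood cells, fell by 0.69 (limma adjusted p = 0.0463). It was the only call among 4 measured erythrocyte markers, whose median was -0.14. Of these, 2, Hbb included, were lower at an unadjusted p under 0.05, against 616 of all 10411 genes. The markers Ahsp and Slc4a1 differed by 0.02 and -0.01. In rats labelled estrus only, the Hbb difference was -0.43 and not called. The remaining falls among the 12 largest, Arrdc3, Rhobtb1 and Apeg3, fell by 0.63, 0.61 and 0.55.

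None of the genes of the receptor itself was called. Rxra differed by 0.07 (SE 0.09), Rxrb by -0.06 (SE 0.07) and Rxrg by 0.05 (SE 0.08), with overlapping groups in each. Of 20 genes of RXR and its partners and cofactors, 0 were called by limma (2 at an unadjusted p under 0.05, Pparg at 0.69 and Ncoa1 at -0.39), and the median was 0.00. Rbp4 was the only call among 19 retinoid genes. Of 10 LXR-type targets, 0 were called by limma and 2 had a difference above 0. The 2 with an unadjusted p under 0.05 were lower: Abcg5, a sterol exporter (difference -0.20, limma adjusted p = 0.287), and Apoe, an apolipoprotein (-0.27, limma adjusted p = 0.333). Of 18 insulin signalling and FoxO genes 0 were called by limma, with 1 higher and 7 lower at an unadjusted p under 0.05. Among all 10411 genes, 911 were higher and 616 lower at that level. Pck1, an enzyme that insulin represses in fat, was lower with overlapping groups (difference -1.30, limma adjusted p = 0.267), and Txnip, a thioredoxin inhibitor that follows glucose, differed by -0.51 (limma adjusted p = 0.137).

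Among hormone-related genes, Ghr, the growth hormone receptor, rose and Prlr, the prolactin receptor, fell. Ghr was 8.34, 8.81 and 9.33 in controls and 9.43, 10.02 and 10.22 in treated rats, a rise of 1.14 ± 0.21 (limma adjusted p = 0.0353). Prlr was 9.84, 9.85 and 10.07 in controls and 9.17, 9.37 and 9.61 in treated rats, a fall of 0.53 (SE 0.11, limma adjusted p = 0.0421). Neither pair of groups overlapped. Of the other Prlr probe sets, one fell by 0.31 and one differed by -0.07 and was not called. Of the 17 genes of that list no others were called, and the median was 0.00. Of 21 cell cycle genes, 0 were called and 0 had an unadjusted p under 0.05. Their mean was 7.97 in treated rat 3, above the other 5 treated rats (7.06 to 7.59) and the controls (7.09 to 7.75).

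Of 15 luminal markers 1 fell, Epcam, an epithelial adhesion protein (difference -0.36, limma adjusted p = 0.0463), and 1 had a difference above 0, with a median of -0.19. The mean of that list was 9.55 to 9.57 in controls and 9.27 to 9.54 in treated rats. Of 10 basal markers 0 were called by limma (1 at an unadjusted p under 0.05), with a median of -0.07, which became 0.05 without control rat 10. Of 11 milk and secretory genes 0 were called by limma (5 lower at an unadjusted p under 0.05), although 3 did not overlap between groups (Muc1 at -0.54, Lalba at -0.58 and Xdh at -0.36), and the median was -0.31. Among all 10411 genes, 616 were lower at that unadjusted level and 306 were lower without overlap. Glycam1, which is made by secretory epithelium and by lymph node vessels and stands on both lists, ranged from 7.39 to 12.69 in treated rats and stood at 11.64, 12.76 and 6.01 in controls. The mean of the lymph node list was 6.78, 6.69 and 6.81 in treated rats 10 and 11 and control rat 10, where Glycam1 was low. It was 7.0 to 7.14 in the other rats. Glycam1 is 1 of the 13 genes averaged, and its gap between these rats is wide enough to give the lower mean by itself. That mean is therefore no separate sign of lymph node content. Whether the other genes of that list differ between these rats was not tested. Cytosolic ribosome genes were lower by a small and even amount. Of 15 of them 1 fell, Rps15 (difference -0.34, limma adjusted p = 0.0384), 0 had a difference above 0, 13 did not overlap between groups, and the median was -0.22. With quantile normalization that median was -0.13 and Rps15 was not called.

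Other cell types were checked through their markers. Of 12 adipocyte markers, Slc2a4 and Aqp7 rose and Cfd fell, with a median of 0.35. The list mean was 9.44, 9.42 and 9.82 in control rats 3, 8 and 10 and 9.52 to 10.1 in treated rats, so that the groups overlapped. Of the 20 fibroblast and matrix markers Thy1 (0.68) and Sparc (0.40) rose, and the list median was 0.12. The second probe sets of Thy1 and Sparc were higher by 0.34 and 0.38 and not called. Of the 10 nerve and Schwann cell markers 1 rose, S100b (1.03 ± 0.13), a calcium-binding protein that fat cells also make. Of the mast cell, endothelial, lymphocyte, skeletal muscle, brown adipocyte and skin markers 0 were called by limma. At an unadjusted p under 0.05 they held 2 of 9, 0 of 10, 0 of 13, 0 of 17, 1 of 6 and 0 of 9 genes. Among all 10411 genes, 911 were higher and 616 lower at that level. In whole-gland RNA, fewer cells of a type and less RNA per cell cannot be told apart, and the part of cell makeup in these differences was not tested.

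**Figure D4:**
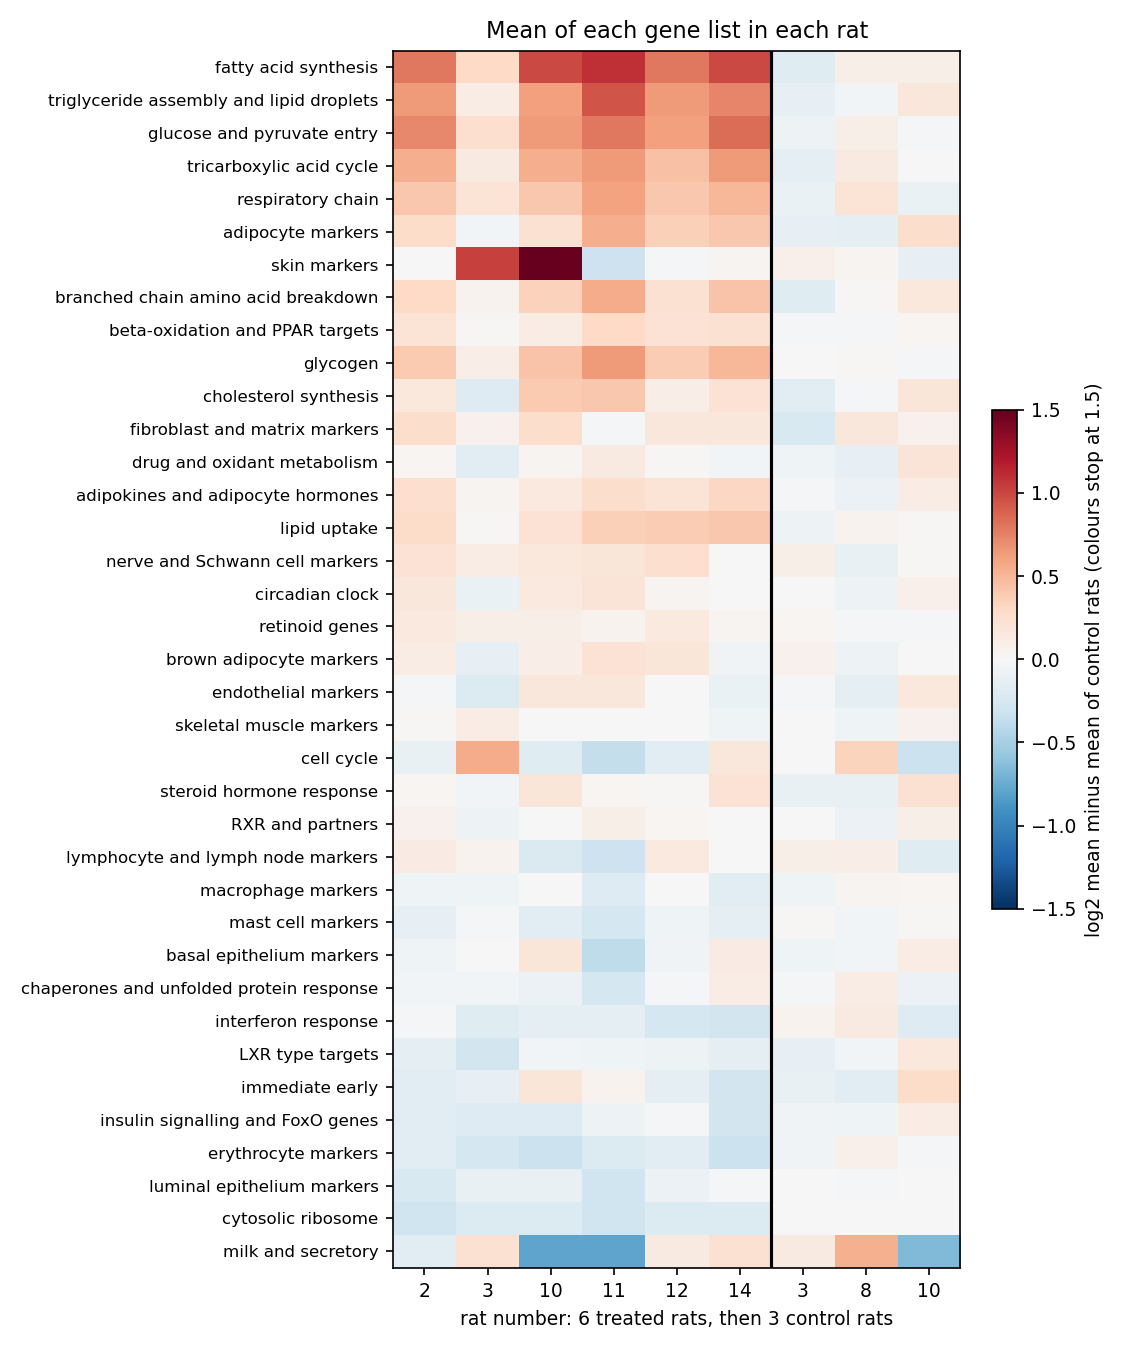
Mean log2 value of each gene list in each of the 9 rats, as the difference from the mean of the 3 control rats, with red above and blue below it; the colour scale stops at 1.5. Treated rat 3 is paler than the other treated rats for fatty acid synthesis (10.4 against 10.9 to 11.2), and treated rats 3 and 10 stand out for skin markers.

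Treated rats shared the rises to different degrees. Of the 190 rises, treated rat 3 was the lowest treated rat in 176, and treated rat 11 the highest in 114. The median rise over the control mean was 0.35 in treated rat 3 and 0.67 to 0.89 in the other treated rats. For the 45 falls, the corresponding medians were -0.40 in treated rat 3 and -0.42 to -0.49 in the others. Set against control rat 3 alone, treated rat 3 was higher on the first arrays by a median of 0.43 over the 190 rises. On the 2 repeat arrays of each of these rats it was higher for 188 of the 190, and the median was 0.35. Across all probe sets, the median SD between the 3 arrays of treated rat 3 was 0.0961, and that between the 6 treated rats 0.119. In 3 pools, each of the targets of 2 of these treated rats, 190 of the 190 rises were above each control rat in every pool, and 39 of the 45 falls were below; the pools hold the same rats and are not further replicates.

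The treatment was then compared with that in the 15 rats in diestrus, which share no rat with the above. There, 682 probe sets were higher (4.3%) and 703 lower (4.43%) by the same limma test, with a median SE of 0.0592 against 0.0838 outside diestrus. Of the 235 calls outside diestrus, 234 had the same direction in diestrus, against 69.3% of all probe sets. In diestrus 195 of them (83.0%) were called the same way, 176 rises and 19 falls, and 0 were called the opposite way. These 195 are 14.1% of the 1385 calls of diestrus. Read the other way, 97.8% of those 1385 had the same direction outside diestrus, and 60.6% also had an unadjusted p under 0.05 there, against 13.2% of all probe sets. The differences at both stages correlated at r = 0.774 across probe sets, with a Spearman rho of 0.614; probe sets are no replicates, and many move together.

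For the leading genes, the differences in diestrus were 2.22 ± 0.37 for Angptl8, 2.98 ± 0.35 for Pnpla3, 1.70 ± 0.29 for Slc2a4, 2.23 ± 0.40 for Elovl6 and 1.92 ± 0.35 for Me1, each called by limma there. The difference between stages was 0.71 for Angptl8 and -0.27 for Pnpla3, at an unadjusted p of 0.253 and 0.65 (limma, 24 rats), and adjusted values of 1. List medians in diestrus were 0.65 for fatty acid synthesis, 0.43 for glucose and pyruvate entry, 0.49 for triglyceride assembly, 0.45 for the tricarboxylic acid cycle and 0.36 for the respiratory chain. The ribosome list had a median of -0.21 with 13 of 15 genes lower, and Cyp2e1, Cers6, Cd14, Cfd and Epcam were lower there too by limma. Gpx3, Cited2 and Apeg3 differed by -0.60, -0.46 and -0.57 in diestrus and were not called there (limma adjusted p = 0.137, 0.177 and 0.0933).

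**Figure D5:**
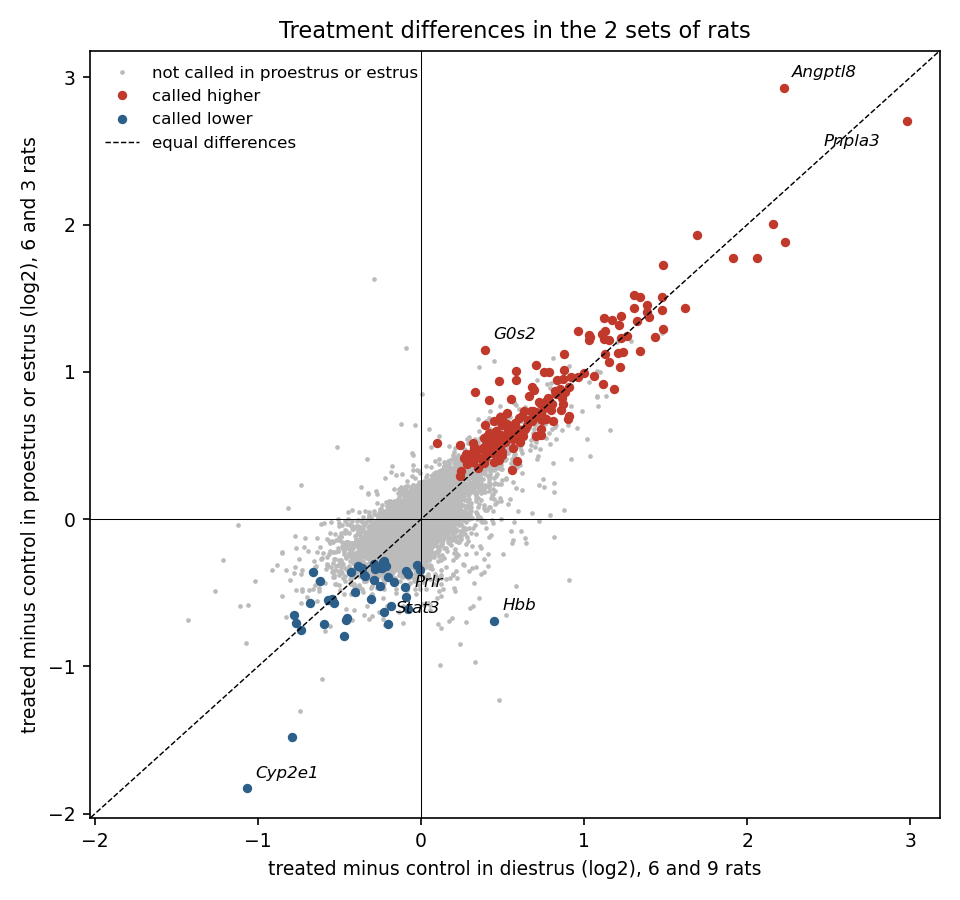
Treated minus control differences (log2) in diestrus (horizontal, 6 and 9 rats) against those in proestrus or estrus (vertical, 6 and 3 rats) for 15866 probe sets; red and blue points were called higher and lower outside diestrus, grey points were not called, and the dashed line marks equal differences. Of the 235 calls, 234 have the same sign on both axes, and the exception is Hbb.

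The test of the difference itself called 0 of 15866 probe sets (0%) by limma over all 24 rats, with 322 at an unadjusted p under 0.05 and a smallest adjusted p of 1. No gene is therefore shown to respond only outside diestrus. The smallest unadjusted p for this difference belonged to Smtn, a smooth muscle protein (0.38 ± 0.09, limma adjusted p = 1). It differed by 0.21 outside diestrus and by -0.17 in diestrus and was called at neither stage. It was followed by Med22 (0.33), Trim11 (0.21), Arhgef17 (0.28), Rbm18 (0.32), Ppp1r11 (0.25), Borcs8 (0.20) and Trim54 (0.14). None of these 8 was called outside diestrus.

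Of the 235 calls, 19 had an unadjusted p above 0.05 in diestrus, and 9 of the 235 an unadjusted p under 0.05 for the difference between stages. G0s2 was 8.19, 8.86 and 8.62 in controls and 9.11, 9.8 and 10.1 (lowest, median and highest) in treated rats outside diestrus, and its difference was 1.15 ± 0.21 there and 0.39 ± 0.20 in diestrus. The difference between stages was 0.76, with an unadjusted p of 0.0306 and an adjusted p of 1 (limma). Prlr differed by -0.53 outside and -0.09 in diestrus (unadjusted p for the difference 0.145, limma), Stat3 by -0.71 and -0.20, Cxcl1 by -0.67 and -0.45, and Arrdc3 by -0.63 and -0.23. The other Stat3 probe set ran the opposite way between stages, at -0.13 and -0.32. Rbm39 (-0.42 and -0.17), Ppm1l (-0.33 and -0.25) and Ccnt2 (-0.39 and -0.20) completed the 8 with the smallest p. The brightest of the 4 Rbm39 probe sets, not called at either stage, differed by -0.27 and -0.40. The other Ppm1l probe sets differed by -0.10 and -0.03 outside diestrus and by -0.20 and 0.09 in diestrus. For the other Ccnt2 probe sets these were -0.08 and -0.11 outside and -0.18 and 0.08 in diestrus. None of these was called at either stage. Rhobtb1 differed by -0.61 and -0.08 (unadjusted p for the difference 0.0153). Hbb had the opposite sign, -0.69 and 0.45 (unadjusted p for the difference 0.0267), and in diestrus it was not called (limma adjusted p = 0.51).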

How the data were processed

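Total RNA of the mammary gland of each rat was labelled and hybridised to a rat expression array, per the labels. The authors deposited 1 value per array for 15923 probe sets. The deposited values were taken as log2 from their range, 4.12 to 14.1, and were not normalized again. Software and normalization by the authors: not given in the sources used here. The 57 control probe sets were left out, which left 15866, with no filter on dim ones. Symbols came from the platform's annotation, updated to RefSeq genes of GRCr8 for 12748 probe sets: 12783 had 1 symbol, 312 several and 2771 none, covering 10411 genes.

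Treated and control rats were compared with limma 3.58.1 (lmFit, eBayes, R 4.3.3) on 1 array per rat, with Benjamini-Hochberg adjustment over all probe sets and a threshold of 0.05. Each stage was fitted on its own rats, and the difference between stages on all 24. The fit was tested on simulated data. Differences are treated minus control in log2 with limma's SE, and their precision is limited by the 3 control rats. Lists use each gene's brightest probe set over the 24 rats and are described by counts and medians, with no test. Named genes are, of the called probe sets that carry 1 symbol, the 12 that rose most and the 12 that fell most, the up to 5 list members with the smallest p (and further called members), the RXR genes, the 8 smallest p for the stage difference, the 8 smallest p among calls with an unadjusted p above 0.05 in diestrus, and the 6 genes that varied most among treated rats. The genes, lists and tests were chosen with earlier results of these data known. Alternatives covered 2 other normalizations, leaving out dim probe sets, array weights, another limma prior, the pooled spread, estrus only, a block by rat number, the repeat arrays, a technical score and each rat left out. The technical score of an array was its position on the leading axis along which arrays of the same RNA differed, with 57.3% of that variance. Figures and tables were made with Python 3.11.15, numpy, pandas and matplotlib.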

Additional observations from a re-analysis of the deposited data

Results flagged for a closer look

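Among the 6 treated rats, single rats lay apart for 9 of the genes named. The criterion was a gap to the nearest other rat that takes up more of the group's range than Dixon's critical value for that group size allows, which chance meets in about 1 of 20 groups; it was applied to 83 genes and list means. Treated rat 3 was low for Angptl8 (7.74), Slc2a4 (9.10), Me1 (11.4), Pdhb (10.52), C8h11orf54 (8.58), Pdk1 (8.19) and Pygl (9.55). These 7 genes rose together, so they are not 7 separate signs, and the repeat arrays of that rat gave like values (7.83 and 7.93 for Angptl8, 9.06 and 9.21 for Slc2a4). Treated rat 3 also had the highest cell cycle mean and the second highest skin mean among treated rats, and the part of either in its low values was not tested. Krtdap and Xist were named for their large spread among these rats, so that a rat apart is no separate sign for them. Krtdap, a protein of differentiating skin, was high in treated rat 10 at 9.48. Xist, the RNA of the inactive X chromosome in females, was low in treated rat 14 at 6.66, with a median of 9.48 in treated rats and 9.96 to 10.64 in the controls.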

How the results depend on the processing

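The direction of the 81 called probe sets that are named or listed held under each alternative that kept them, and the calls often did not. These probe sets were picked by the main fit, and the alternatives reuse its rats. The count of 235 calls became 113 with each array centred on its median, 356 with the arrays of each rat 3 averaged, 488 without treated rats 3 and 10 together, and 0 at a threshold of 0.01 (smallest adjusted p 0.0129, limma). It ranged from 0 to 583 with single rats left out. With the rat number as a replicate block, limma called 0 (1797 at an unadjusted p under 0.05); only numbers 3 and 10 occur in both groups, where the deviations of same-numbered rats correlated at 0.383 and 0.464, and the labels do not pair them. With that block Rxra and Rxrg differed by -0.10 each. The other alternatives gave 193 to 303 calls. In diestrus the calls stayed between 1245 and 1408, and the stage difference had 0 calls under each alternative (224 to 558 at an unadjusted p under 0.05). The 3 control rats limit all of this.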

Other observations

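Other gene groups outside diestrus held no call by limma. Of 16 interferon response genes 1 had a difference above 0, and Plscr1 was lower without overlap between groups (difference -0.76, limma adjusted p = 0.0645). Of 14 circadian clock genes the median was 0.02, and Per1 differed by 0.33 with overlapping groups. Of 17 immediate early genes the median was -0.12, with Dusp1, a phosphatase of stress kinases, at 0.64 (limma adjusted p = 0.338). Of 19 chaperone and unfolded protein response genes the median was -0.08, and the mitochondrial chaperone pair Hspe1 and Hspd1 differed by 0.30 and 0.21.

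The genes that varied most among treated rats were Krt10, Krt1, Krtdap, Glycam1, Csn2 and Xist. Csn2, a casein, ranged from 6.76 to 9.53 in treated rats and stood at 8.21, 10.19 and 6.18 in the controls. Control rat 10 had the lowest value of the 9 rats for both Csn2 and Glycam1, and it had the highest Cyp2e1.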
